A study of Homo sapiens with 11 samples.

Results

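VCAM1 and other genes that the transcription factor NF-kB induces were followed across A375 melanoma xenografts. The set was VCAM1, ICAM1, TNFAIP3, TRAF1, NFKBIA, NFKB2, RELB, BIRC3 and TNFAIP2, chosen by name with earlier results of these data known. The NF-kB induced chemokines were left aside, and every probe annotated to one of the 9 genes was taken on its own. The annotation used here gave 13 probes for 8 of the 9 genes, out of 30113 probes with 1 gene symbol in the table. BIRC3, which encodes the apoptosis inhibitor cIAP2, was not analysed here. Of the 13 probes, 12 were above background on at least 1 array and were tested among 20638 such probes, and a probe of NFKB2 (ILMN_2247868) was above background on 0 of 11 arrays.

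NF-kB is a family of dimeric transcription factors held in the cytoplasm by inhibitor proteins. Signals from TNF, interleukin-1 or pattern recognition receptors destroy the inhibitor and let the dimers of the classical pathway enter the nucleus, where they switch on adhesion molecules, chemokines and survival genes together with their own inhibitors. A slower, alternative pathway runs through the p100 protein, the product of NFKB2, and its partner RELB. VCAM1 is best known as a surface protein of inflamed endothelium and activated stromal cells that binds the integrin VLA-4 on leukocytes.

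A375 is an established human melanoma line with mutant BRAF. The cells were injected under the skin of 6-week-old female CD1 athymic mice, and tumour-bearing mice were treated over 12 days in 4 arms: the methylcellulose vehicle, PLX4720, which inhibits the BRAF kinase and was given by gavage every day at 60 mg/kg, bevacizumab, which neutralises human VEGF and was injected into the peritoneum at 10 mg/kg 3 times a week, and the drugs together (COMBO). Whole-tumour RNA was hybridised to human bead arrays, 2 in the COMBO arm and 3 in each other arm, and the methods call the replicates biological. All groups share 1 cell line, human, growing in mouse stroma in a host without T cells, and arrays of mouse probes were not analysed here.

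Each array had 19767 to 21952 of its 47323 probes above background, by a detection p below 0.05, and its 95th percentile of signal was 22.6 to 36.7 times the background. PLX4720 arrays were less alike (r 0.917 to 0.927 within the arm) than vehicle (0.986 to 0.987), COMBO (0.985) or bevacizumab arrays (0.955 to 0.986). The melanoma markers SOX10, MIA, S100A1 and MITF were above background on all 11 arrays, whereas the pigment genes MLANA, TYR and TYRP1 and the melanoma marker S100B were on 0. Of 16 leukocyte markers, 4 (CD68, CSF1R, AIF1 and CORO1A) were on all 11 arrays and 3 (PTPRC, TYROBP and CD3E, of which PTPRC defines leukocytes and CD3E T cells) on 0. Of 15 endothelial markers, 3 (PECAM1, ENG and ESAM) were on all 11 and 6 (CDH5, KDR, VWF, ERG, CLDN5 and SELP) on 0. The remaining members of both lists were on some of the arrays.

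The stretches upstream of the genes are shown because they carry the letters that NF-kB dimers are known to bind. The RefSeq promoter table (GRCh38.p14) held 11 windows of 250 bases before a start for 7 of the 8 genes. Each window was searched on both strands for the 10-base kB consensus and for GGAAATTCC. The latter can lie within a consensus match, as it does in NFKBIA. The consensus was found in 5 of the 11 windows, from 4 genes (VCAM1, TNFAIP3, NFKBIA and NFKB2), against 9.96% of all 35116 windows of that length in the table. GGAAATTCC was in 0.413% of all windows, among them those of ICAM1 and NFKBIA. These are matches of letters, and binding was not measured.

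The whole VCAM1 window, chr1:100719492-100719741 on the plus strand, is given with its consensus match in capitals, at -62 to -53 from the start. The match holds on both strands.
VCAM1: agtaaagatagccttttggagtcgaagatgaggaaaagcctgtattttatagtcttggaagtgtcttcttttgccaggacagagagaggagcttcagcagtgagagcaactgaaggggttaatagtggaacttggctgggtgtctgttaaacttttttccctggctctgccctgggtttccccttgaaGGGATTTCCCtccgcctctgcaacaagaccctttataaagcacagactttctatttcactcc

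For the other genes 30 bases around each match are given, read 5′ to 3′ on the strand of the gene. The TNFAIP3 stretch, chr6:137867188-137867217 (plus strand), held a pair of consensus matches, and the NFKBIA stretch was at chr14:35404811-35404840 (minus strand). NFKB2, with several matches in the middle and the last of its 3 windows, is shown by 1 stretch of each, at chr10:102394462-102394491 and chr10:102395674-102395703 (plus strand), and ICAM1, whose window held no consensus match, by GGAAATTCC in capitals at chr19:10270924-10270953 (plus strand). The windows of TRAF1 and TNFAIP2 held neither the consensus nor GGAAATTCC.
TNFAIP3: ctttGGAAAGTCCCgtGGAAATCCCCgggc
NFKBIA: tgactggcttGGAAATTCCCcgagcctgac
NFKB2, middle window: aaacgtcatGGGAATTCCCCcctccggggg
NFKB2, last window: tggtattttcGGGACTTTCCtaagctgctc
ICAM1: gctttagcttGGAAATTCCggagctgaagc

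PLX4720 was compared with vehicle to see what BRAF inhibition alone did to these genes. VCAM1 rose on all 3 of its probes, by 9.19-fold to 29.3-fold, and TNFAIP3 and a TRAF1 probe rose by 3.72-fold and 3.20-fold. ICAM1, NFKBIA, NFKB2, RELB and TNFAIP2 did not pass the test. In all, 5 of the 12 probes, from 3 of the 8 genes, were higher at an adjusted p below 0.05 and 0 were lower, against 1.26% of all probes tested that were higher and 1.17% that were lower (2.43% in either direction). The median log2 fold change of the 12 probes was 0.91, and that of all probes 0.03. The members were chosen with earlier results known, so their share beside that of all probes describes the set and is no test of it. The arrays of the arms did not overlap for 7 of the 12 probes, all with PLX4720 above, against 10.3% of all probes.

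The VCAM1 probe detected on all 11 arrays (ILMN_2307903) had scanner signals of 448.0, 312.3 and 316.9 on the vehicle arrays and 13496.8, 4386.4 and 4599.2 on the PLX4720 arrays, in arrays 1 to 3. On the normalized log2 scale, used from here on for levels, these were 8.31, 7.48 and 7.41 for vehicle and 13.69, 12.27 and 11.86 for PLX4720. Every PLX4720 array lay far above every vehicle array, and PLX4720 1 was the highest of the 11. The log2 fold change was 4.87 ± 0.42 (SE, n = 3 against 3, adjusted p = 0.000951). The second probe (ILMN_1766955) was at 5.91, 5.50 and 5.76 on vehicle, where 2 of 3 arrays were above background, and at 11.18, 9.12 and 9.25 on PLX4720. It rose by 4.13 ± 0.47 on the log2 scale, 17.5-fold (adjusted p = 0.00279). The third probe (ILMN_2325763), annotated to another transcript variant of VCAM1, was at 5.90, 5.61 and 5.52 on vehicle, with 1 of 3 arrays above background, and at 10.42, 8.32 and 7.89 on PLX4720. Its log2 fold change was 3.20 ± 0.52 (adjusted p = 0.0137), and leaving out any of the 3 vehicle arrays took its adjusted p to between 0.05 and 0.0805. The probes followed each other closely over the 11 arrays (pairwise r 0.97 to 0.98). For ILMN_2307903 and ILMN_1766955 the call was kept in every alternative setting run.

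**Figure D1:**
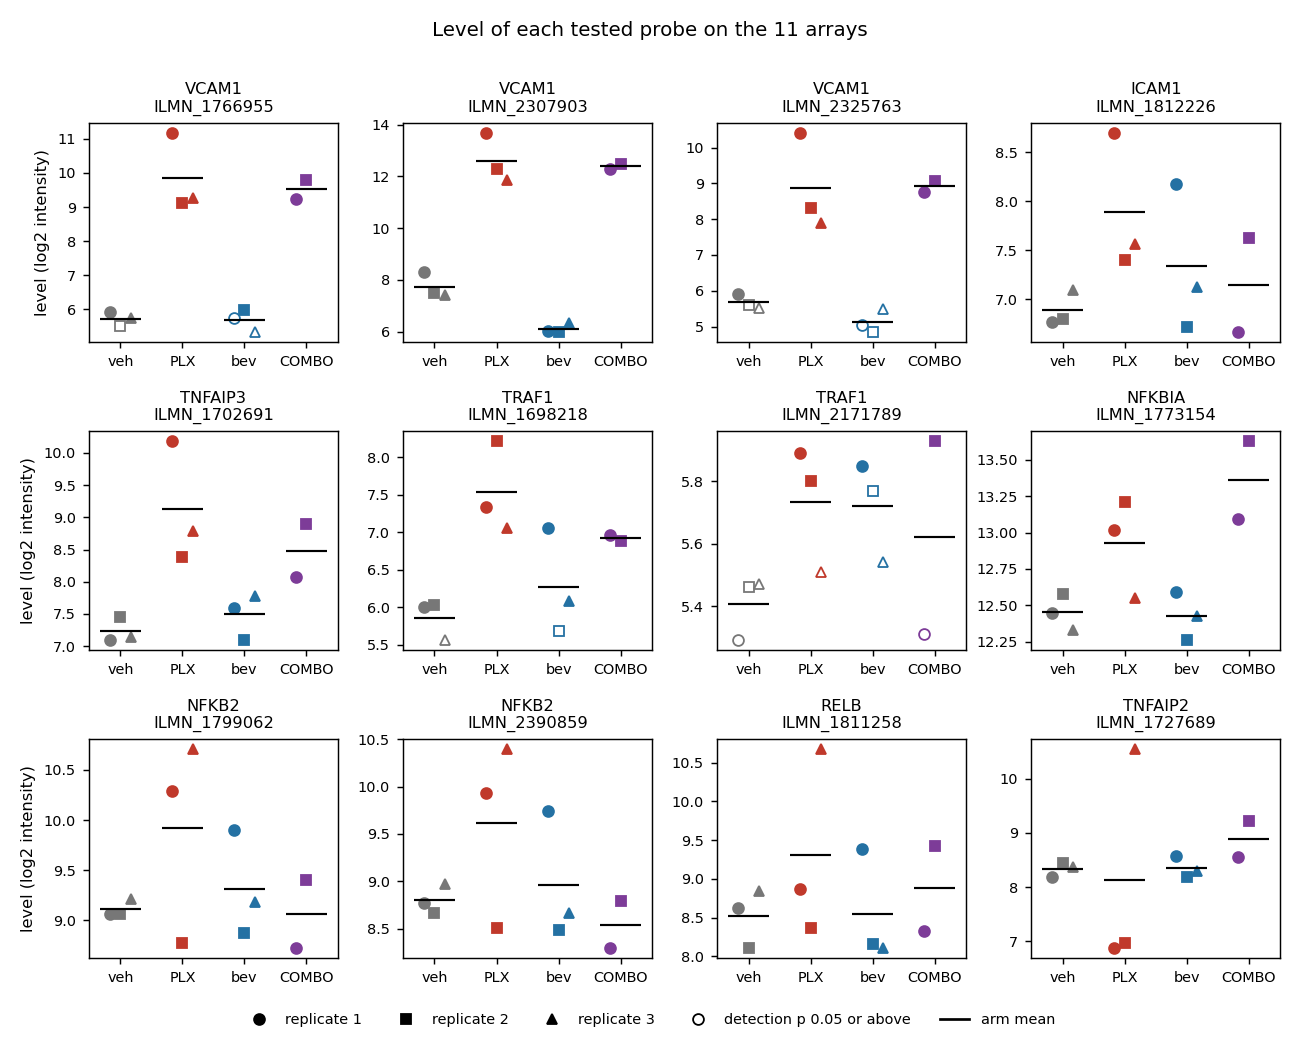
Level of each of the 12 tested probes (y axis, normalized log2 intensity) by arm (x axis: veh, vehicle; PLX, PLX4720; bev, bevacizumab; COMBO), with a symbol per array, open where the detection p was 0.05 or above, and a bar at the arm mean. VCAM1 separated the arrays with PLX4720 from those without it, whereas NFKB2, RELB and TNFAIP2 spread widely within the PLX4720 arm.

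ICAM1, the other adhesion molecule of the set and a ligand of the leukocyte integrin LFA-1, moved little beside VCAM1. Its levels were 6.77, 6.80 and 7.09 on vehicle and 8.70, 7.40 and 7.56 on PLX4720. The arms did not overlap, but PLX4720 1 stood well above the other arrays. The log2 fold change was 1.00 ± 0.44 (95% interval 0.03 to 1.96, adjusted p = 0.285). On bevacizumab ICAM1 read 8.17, 6.71 and 7.12, and on COMBO 6.66 and 7.62, so that both arms overlapped with vehicle and with PLX4720.

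TNFAIP3 encodes A20, a ubiquitin-editing enzyme that switches NF-kB signalling off and is itself an NF-kB target. Its levels were 7.09, 7.45 and 7.15 on vehicle and 10.19, 8.39 and 8.79 on PLX4720. No array overlapped, and PLX4720 1 was again the highest of the 11. The log2 fold change was 1.89 ± 0.42 (adjusted p = 0.044). The call was kept without PLX4720 2 or PLX4720 3 and lost without any other single array, where the adjusted p ranged up to 0.17, and without PLX4720 1 the log2 fold change was 1.36. Over all alternative settings it was called in 5 of 21.

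NFKBIA encodes the inhibitor IkB-alpha, the classical feedback target of NF-kB, and was at 12.45, 12.58 and 12.33 on vehicle. It read 13.02, 13.21 and 12.55 on PLX4720 and 13.09 and 13.63 on COMBO. COMBO 2 was the highest array, and PLX4720 3 lay within the vehicle range. PLX4720 differed from vehicle by 0.47 ± 0.24 (adjusted p = 0.366), and COMBO from vehicle by 0.91 ± 0.27 (95% interval 0.31 to 1.5, adjusted p = 0.489). Neither passed the test.

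TRAF1 encodes an adaptor of TNF receptors. Its probe ILMN_1698218 was at 6.00, 6.03 and 5.56 on vehicle, with 2 of 3 arrays above background, and at 7.34, 8.22 and 7.06 on PLX4720. PLX4720 2 was the highest of the 11 arrays here, and the arms did not overlap. The log2 fold change was 1.68 ± 0.38 (adjusted p = 0.0463). Leaving out PLX4720 3, bevacizumab 1 or bevacizumab 2 kept the call, and leaving out any other single array lost it, with an adjusted p of up to 0.196. Over all alternative settings it was called in 7 of 21. The other probe (ILMN_2171789) was above background on 0 vehicle arrays and 2 of 3 PLX4720 arrays, and its bound was at least 1.05-fold (adjusted p = 0.514).

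NFKB2 and RELB, which encode the p100 and RelB subunits of the alternative pathway, did not separate the arms. The NFKB2 probe ILMN_1799062 read 9.06, 9.06 and 9.21 on vehicle and 10.29, 8.77 and 10.71 on PLX4720, and ILMN_2390859 read 8.77, 8.67 and 8.97 against 9.93, 8.51 and 10.40. PLX4720 1 and 3 were above the vehicle range and PLX4720 2 below it on both probes. The log2 fold changes were 0.81 ± 0.45 (adjusted p = 0.412) and 0.81 ± 0.46 (adjusted p = 0.426). Without PLX4720 2 ILMN_1799062 passed (1.39, adjusted p = 0.0346). RELB was at 8.62, 8.11 and 8.84 on vehicle and at 8.87, 8.36 and 10.68 on PLX4720, a difference of 0.78 ± 0.57 (adjusted p = 0.541) that stood mostly on PLX4720 3.

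TNFAIP2 encodes a TNF-induced protein that takes part in forming membrane protrusions. Its levels were 8.19, 8.45 and 8.38 on vehicle, but 6.87, 6.97 and 10.55 on PLX4720. PLX4720 1 and 2 were below every vehicle array and PLX4720 3 was the highest of the 11. The log2 fold change was -0.21 ± 0.76 (adjusted p = 0.925). Without PLX4720 3 the gene fell by 1.42 (adjusted p = 0.0147).

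The members thus had different highest arrays. PLX4720 1 was the highest of the 11 arrays for 5 of the 12 probes (VCAM1 on 3 probes, ICAM1 and TNFAIP3), PLX4720 3 for 4 (NFKB2 on 2 probes, RELB and TNFAIP2), COMBO 2 for 2 (NFKBIA and TRAF1 ILMN_2171789) and PLX4720 2 for 1. Over all probes tested, PLX4720 1 was the highest for 24.7%, PLX4720 3 for 16%, PLX4720 2 for 9.97% and COMBO 2 for 4.15%. Over the 11 arrays VCAM1 (ILMN_2307903) correlated with TNFAIP3 at 0.83, NFKBIA at 0.79 and TRAF1 ILMN_1698218 at 0.72, and with ICAM1, RELB, NFKB2 (ILMN_1799062) and TNFAIP2 at 0.38, 0.34, 0.28 and -0.06. NFKB2 (ILMN_1799062) and RELB correlated at 0.83. These values describe 11 arrays that share 4 arms and carry no test.

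**Figure D2:**
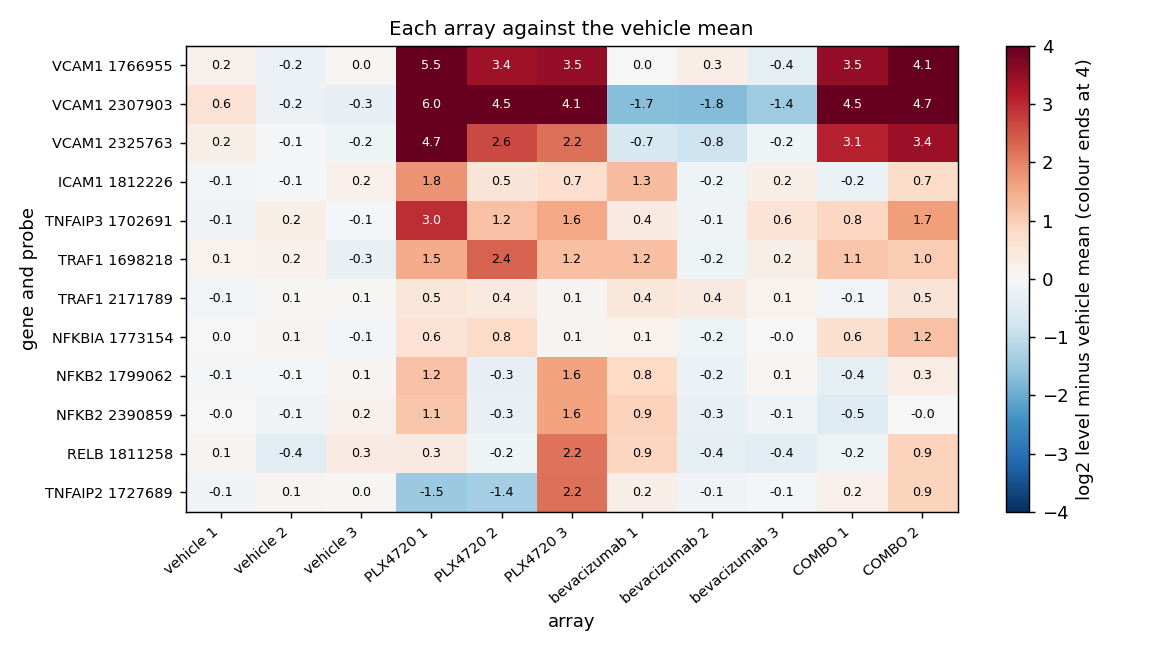
Level of each tested probe on each array minus the mean of the 3 vehicle arrays (colour and printed number, log2 units), with genes and probe numbers in rows and arrays in columns. The VCAM1 probes were high on all 5 arrays with PLX4720, while RELB and TNFAIP2 were highest on PLX4720 3.

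Bevacizumab was compared with vehicle to see what VEGF blockade alone did. In limma's test 0 of the 12 probes passed, as did 0% of all probes tested, and 1 of the 12 had an unadjusted p below 0.05, against 2.62% of all probes. That probe was VCAM1 ILMN_2307903, at 6.04, 5.98 and 6.32 on bevacizumab. These readings were near the floor, at 1.36, 1.36 and 1.54 times background. All 3 arrays were below the lowest vehicle array, and the level was 3.08-fold lower (log2 -1.62 ± 0.42, 95% interval -2.55 to -0.70, adjusted p = 1). At the methods' limits (a log2 change of 1 or more either way and, before adjustment, p below 0.01) it was the 1 of 12 that passed, against 0.179% of all probes. Over the alternative settings its log2 fold change ran from -1.78 to -0.8. The arms did not overlap for 2 probes with bevacizumab below vehicle, both of VCAM1, against 6.53% of all probes, but the other of them (ILMN_2325763) was above background on 0 bevacizumab arrays and 1 vehicle array. The third VCAM1 probe overlapped between the arms (-0.04 ± 0.47). TRAF1 ILMN_2171789, with 1 bevacizumab array above background and 0 vehicle arrays, was the 1 probe of the 12 that lay above vehicle without overlap, against 4.59% of all probes.

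Bevacizumab 1 differed from the other arrays of its arm for several members. It read 9.90 and 9.74 on the NFKB2 probes, against 8.49 to 9.18 on bevacizumab 2 and 3, and 9.39 for RELB, against 8.16 and 8.10. TRAF1 ILMN_1698218 was at 7.06 there and at 5.68 and 6.09 on the others. TNFAIP3 (7.60, 7.10 and 7.78), NFKBIA (12.59, 12.26 and 12.43) and TNFAIP2 (8.58, 8.19 and 8.29) lay at or near the vehicle range on all 3 arrays. Over all probes, bevacizumab 1 and PLX4720 3 deviated together from their arm means (r = 0.61, the highest of the 45 pairs of arrays from different arms). Without both of them TNFAIP2 fell by 1.42 under PLX4720 (adjusted p = 0.014), RELB differed by 0.09 (adjusted p = 0.895) and NFKB2 ILMN_1799062 by 0.42 (adjusted p = 0.555), and the 5 calls of VCAM1, TNFAIP3 and TRAF1 were kept.

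COMBO was compared with vehicle and with each drug alone, to see whether adding the second drug changed the response. Against vehicle 2 of the 12 probes were higher and 0 lower, both of VCAM1, against 0.0872% of all probes that were higher and 0.00969% that were lower (0.0969% in either direction). VCAM1 ILMN_2307903 read 12.29 and 12.48 on COMBO, within the range of the PLX4720 arrays and above all vehicle arrays. The log2 fold change was 4.65 ± 0.47 (25.1-fold, n = 2 against 3, adjusted p = 0.00557). ILMN_1766955 was at 9.23 and 9.80 and rose by 3.79 ± 0.52 (adjusted p = 0.0357). That call was lost with the authors' spline values (adjusted p = 0.113) and without any 1 of the vehicle arrays (adjusted p 0.0596 to 0.188). ILMN_2325763 was at 8.76 and 9.08, with a difference of 3.25 ± 0.58 that did not pass (adjusted p = 0.0698). With only 1 COMBO array left in the fit, and its spread taken from the other arms, the log2 fold change of ILMN_2307903 was 4.55 or 4.74. Such a fit has no replicate in the COMBO arm, so only its size is given. The arms did not overlap for 7 of the 12 probes, all with COMBO above, against 15.9% of all probes. Besides VCAM1 these were TNFAIP3 (8.07 and 8.90; 1.25 ± 0.47, adjusted p = 0.799), TRAF1 ILMN_1698218 (6.96 and 6.89; 1.06 ± 0.43, adjusted p = 0.868), NFKBIA and TNFAIP2 (8.55 and 9.22; 0.55 ± 0.85).

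**Figure D3:**
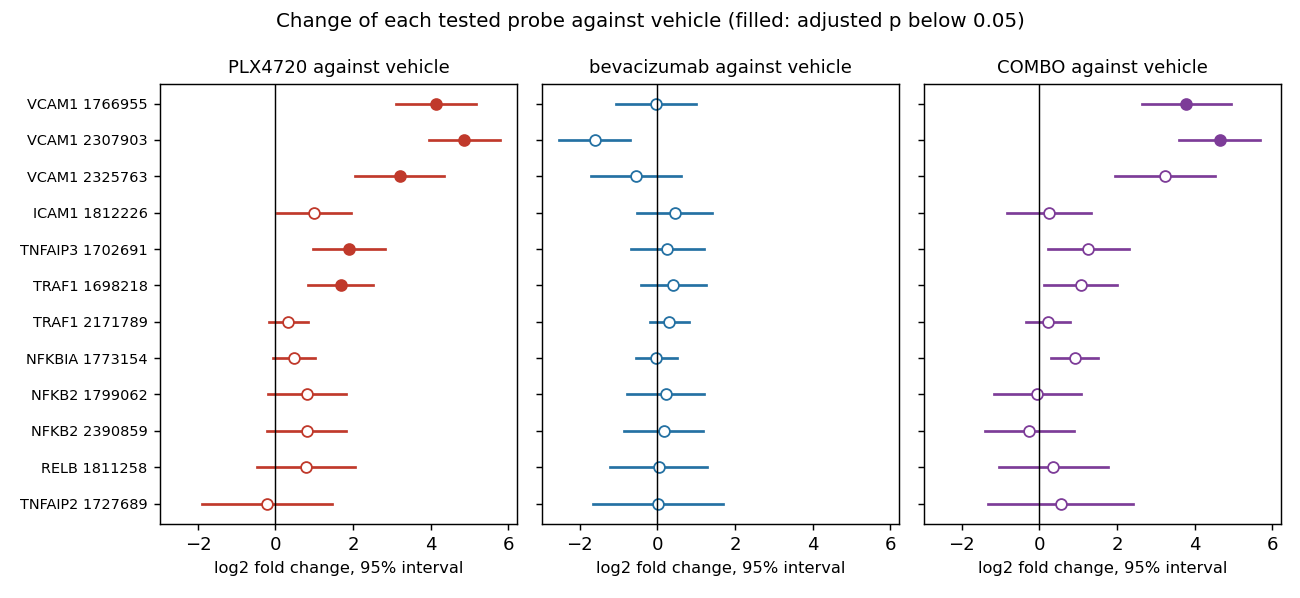
Log2 fold change against vehicle (x axis) of each tested probe (y axis, gene and probe number) under PLX4720, bevacizumab and COMBO, with 95% intervals from limma and filled points at an adjusted p below 0.05. Filled points are 3 VCAM1 probes, TNFAIP3 and a TRAF1 probe for PLX4720 and 2 VCAM1 probes for COMBO.

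Against bevacizumab 3 of the 12 probes were higher in COMBO and 0 lower, again all of VCAM1, against 0.208% of all probes that were higher and 0.0921% that were lower (0.3% in either direction). ILMN_2307903 was 77.1-fold higher (log2 6.27 ± 0.47, adjusted p = 0.000569), from a bevacizumab mean of 6.11 to a COMBO mean of 12.38. The bevacizumab arrays read only 1.36, 1.36 and 1.54 times background, so the size of this fold rests on values near the floor. Over the alternative settings the log2 difference ran from 4.55 to 6.37. ILMN_1766955 was higher by 3.83 ± 0.52 (adjusted p = 0.0159), and ILMN_2325763, below background on every bevacizumab array, at least 8.96-fold (adjusted p = 0.0253). Both lost the call with the authors' spline values (adjusted p = 0.0717 and 0.134). With only 1 COMBO array left in the fit, the log2 difference of ILMN_1766955 was 4.11 or 3.55, and that of ILMN_2325763 was 3.96 or 3.64. The arrays did not overlap for 5 of the 12 probes, all with COMBO above, against 14.8% of all probes. They were the 3 VCAM1 probes, TNFAIP3 (0.99 ± 0.47, adjusted p = 0.734) and NFKBIA (0.93 ± 0.27, adjusted p = 0.304).

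Between COMBO and PLX4720 0 of the 12 probes passed in limma's test, and 0 had an unadjusted p below 0.05, against 0.00485% and 8.33% of all probes. The VCAM1 differences were -0.22 ± 0.47, with a 95% interval of -1.26 to 0.81, for ILMN_2307903, -0.34 ± 0.52 for ILMN_1766955 and 0.05 ± 0.58 for ILMN_2325763. The differences of largest size were those of NFKB2, -1.07 ± 0.52 (ILMN_2390859, adjusted p = 0.625) and -0.86 ± 0.51 (ILMN_1799062). TNFAIP3 differed by -0.64 (95% interval -1.68 to 0.40), ICAM1 by -0.75 (-1.83 to 0.33) and NFKBIA by 0.43 (-0.17 to 1.03). These intervals are wide and do not show that the arms were alike. TRAF1 ILMN_1698218 was the 1 probe of the 12 whose arrays did not overlap, with COMBO below PLX4720 (-0.62 ± 0.43), against 10.9% of all probes.

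Whether the drugs added up on the log2 scale was asked by the interaction (COMBO minus PLX4720 minus bevacizumab plus vehicle). It passed for 0 of the 12 probes in limma's test, and for 0% of all probes, and 1 of the 12 had an unadjusted p below 0.05, against 6.62% of all. That probe was VCAM1 ILMN_2307903 (1.40 ± 0.63, 95% interval 0.01 to 2.79, adjusted p = 0.751). Here bevacizumab alone lay below vehicle, with readings near background, and COMBO near PLX4720. Over the alternative settings this interaction ran from 0.58 to 1.94. The other VCAM1 probes gave -0.30 ± 0.70 and 0.60 ± 0.78, and ICAM1 -1.20 ± 0.66. Averaged over the presence and absence of bevacizumab, the effect of PLX4720 was called for 4 of the 12 probes, all higher, against 1.81% of all probes that were higher and 1.07% that were lower (2.88% in either direction): VCAM1 by 5.57 ± 0.32 (adjusted p = 1.98e-05), 3.98 ± 0.35 and 3.50 ± 0.39, and TNFAIP3 by 1.44 ± 0.32 (adjusted p = 0.0374). TRAF1 ILMN_1698218 (1.16 ± 0.29, adjusted p = 0.0581) and NFKBIA (0.70 ± 0.18, adjusted p = 0.0728) did not pass. With the authors' spline values TNFAIP3 did not pass (adjusted p = 0.0617) and NFKBIA did (adjusted p = 0.033). TNFAIP3 also lost its call without any 1 of the vehicle arrays (adjusted p 0.0817 to 0.105). The average effect of bevacizumab was called for 0 of the 12 and for 0% of all probes, and 1 of the 12 had an unadjusted p below 0.05, against 4.03% of all: VCAM1 ILMN_2307903 (-0.92 ± 0.32, adjusted p = 0.975).

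The order of the arm means for VCAM1 ILMN_2307903 was PLX4720 (12.61 ± 0.96, SD), COMBO (12.38 ± 0.13), vehicle (7.74 ± 0.50) and bevacizumab (6.11 ± 0.18). PLX4720 and COMBO overlapped, and the other neighbours did not. TNFAIP3 followed the order PLX4720 (9.12 ± 0.95), COMBO (8.48 ± 0.59), bevacizumab (7.49 ± 0.35) and vehicle (7.23 ± 0.19), where COMBO and bevacizumab did not overlap and the outer neighbours did. For NFKBIA, NFKB2, RELB, TNFAIP2 and ICAM1 every pair of neighbouring arms overlapped.

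The rest of the pathway was read from further lists. Of the NF-kB signalling core (receptors, adaptors, kinases, inhibitors and subunits), 48 probes of 35 genes were tested under PLX4720. The 1 that rose was RBCK1, which encodes a subunit of the linear ubiquitin ligase of the TNF receptor complex (ILMN_1751330, 1.05 ± 0.24, adjusted p = 0.0475), and 0 fell. Of all probes 1.26% were higher and 1.17% lower. RBCK1 has another probe on the array. That probe (ILMN_2406313) differed by 1.19 ± 0.41 and did not pass (adjusted p = 0.174). The median of the list was 0.12, or 0.03 with probes below background at their bounds, and that of all probes 0.03. The interleukin-1 receptor subunit IL1RAP (1.59 ± 0.45, adjusted p = 0.101), the inhibitor NFKBIB (1.37 ± 0.45, adjusted p = 0.152) and the adaptor TRAF5 (at least 1.82-fold, adjusted p = 0.15) had the next smallest p and did not pass. The classical subunit NFKB1 differed by -0.07 ± 0.30 (adjusted p = 0.935) and RELA by -1.54 ± 0.85 (adjusted p = 0.405), the 2 probes of REL were above background on 2 and 1 arrays, and TNF was on 0. At an unadjusted p below 0.05 in limma's test were 10 of the 48 for PLX4720 against vehicle, against 16.5% of all probes. In the following contrasts 0 of the 48 passed after adjustment, where at most 0.3% of all probes did. The unadjusted limit held 4 for bevacizumab against vehicle (2.62% of all probes), 2 for COMBO against vehicle (4.95%) and 3 for COMBO against PLX4720 (8.33%). It held 3 for COMBO against bevacizumab (7.05%) and 5 for the interaction (6.62%).

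Of other NF-kB induced genes outside the chemokines, 44 probes of 33 genes were tested under PLX4720. CEBPD, a transcription factor of the acute phase response, rose by 2.22 ± 0.35 (adjusted p = 0.012), from 10.20, 10.28 and 9.93 on vehicle to 12.84, 11.95 and 12.27 on PLX4720. It read 10.97, 9.66 and 9.88 on bevacizumab and 11.17 and 11.33 on COMBO, so that COMBO lay between vehicle and PLX4720. IL15RA, the interleukin-15 receptor subunit, below background on all vehicle arrays, was at least 1.31-fold higher (adjusted p = 0.0447). BCL2L1, which encodes the survival protein BCL-xL, fell by 2.18 (SE 0.42, adjusted p = 0.0288), from 7.95, 8.34 and 8.45 to 5.19, 6.88 and 6.14. That made 2 higher and 1 lower of 44, against 1.26% of all probes higher and 1.17% lower. The median was 0.30, or 0.19 at bounds, and that of all probes 0.03. The immunoproteasome subunit PSMB9 (1.24 ± 0.30, adjusted p = 0.0616) did not pass. With the effect of PLX4720 averaged over both backgrounds, CEBPD (1.65 ± 0.26) and PTGS2, the inducible cyclooxygenase (1.53 ± 0.33, adjusted p = 0.0338), were higher. PLAU, the urokinase gene (-1.52 ± 0.29, adjusted p = 0.0209), and GADD45B, a stress sensor (-1.03 ± 0.20, adjusted p = 0.0218), were lower. Of all probes 1.81% were higher and 1.07% lower in that contrast. At an unadjusted p below 0.05 in limma's test were 19 of the 44 for PLX4720 against vehicle, against 16.5% of all probes. In the following contrasts 0 of the 44 passed after adjustment, where at most 0.3% of all probes did. The unadjusted limit held 1 for bevacizumab against vehicle (2.62% of all probes), 11 for COMBO against vehicle (4.95%) and 4 for COMBO against PLX4720 (8.33%). It held 9 for COMBO against bevacizumab (7.05%) and 2 for the interaction (6.62%).

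Of adhesion molecules of leukocyte traffic and their integrin partners, 27 probes of 20 genes were tested. MCAM, a melanoma adhesion molecule also called CD146, rose under PLX4720 by 1.22 ± 0.26 (adjusted p = 0.0388), and 0 fell. Of all probes 1.26% were higher and 1.17% lower. The median was 0.06, or 0 at bounds, and that of all probes 0.03. PECAM1 (-0.80 ± 0.25, adjusted p = 0.138), ICAM5 (-1.19 ± 0.38, adjusted p = 0.145) and CD47 (0.65 ± 0.28, adjusted p = 0.275) did not pass. In the averaged effect of PLX4720 ICAM5, an adhesion molecule of neurons, was lower (-1.23 ± 0.29, adjusted p = 0.0477), as were 1.07% of all probes. VCAM1 and ICAM1 are not counted in this list. At an unadjusted p below 0.05 in limma's test were 4 of the 27 for PLX4720 against vehicle, against 16.5% of all probes. In the following contrasts 0 of the 27 passed after adjustment, where at most 0.3% of all probes did. The unadjusted limit held 1 for bevacizumab against vehicle (2.62% of all probes), 2 for COMBO against vehicle (4.95%) and 2 for COMBO against PLX4720 (8.33%). It held 4 for COMBO against bevacizumab (7.05%) and 1 for the interaction (6.62%).

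**Figure D4:**
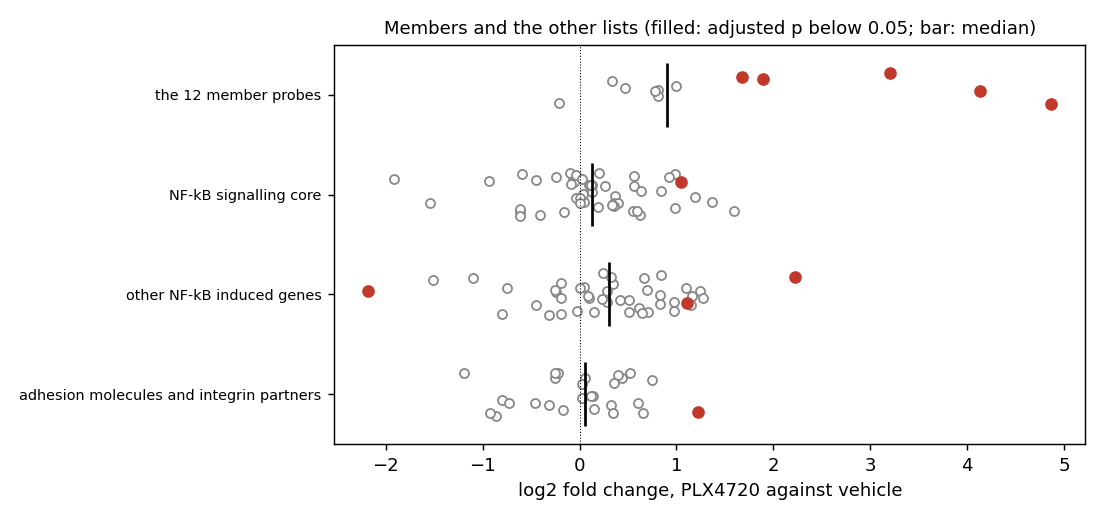
Log2 fold change of PLX4720 against vehicle (x axis) for the 12 member probes and the probes of 3 further lists (rows, points spread vertically for sight), filled at an adjusted p below 0.05, with a bar at each median. The filled points outside the members are RBCK1, CEBPD, IL15RA, BCL2L1 and MCAM.

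The genes whose levels followed VCAM1 (ILMN_2307903) most closely over the 11 arrays, of 14886 genes, were COL3A1 (the chain of type III collagen, r = 0.98), BOC (a hedgehog co-receptor, 0.976), SERPINI1 (neuroserpin, 0.972), LRRC17 (0.972), MOXD1 (0.971) and SCRG1 (0.97). The arrays fall into those with and without PLX4720, so a gene that separates these scores high. Within the 6 arrays without PLX4720, r was 0.97 for COL3A1 and 0.537 to 0.895 for the others, and within the 5 arrays with PLX4720 it was 0.83 for COL3A1 and 0.58 to 0.843 for the others. COL3A1 rose by 5.01 ± 0.65 under PLX4720 (adjusted p = 0.00481), was higher in COMBO than in bevacizumab by 6.24 ± 0.73 (adjusted p = 0.00843), and read 5.40, 5.82 and 5.27 on bevacizumab against 9.20, 7.49 and 7.39 on vehicle. Its probe was above background on 9 of the 11 arrays, and these bevacizumab levels were near the floor. The size of 6.24 and the r of 0.97 without PLX4720 rest in part on them. SCRG1, below background on all vehicle arrays, was at least 51.9-fold higher under PLX4720 (adjusted p = 0.000176).

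Markers of fibroblasts and mural cells rose with VCAM1 under PLX4720. Of 21 probes for 12 such genes, 10 were higher and 0 lower under PLX4720, against 1.26% and 1.17% of all probes, with a median of 1.87 against 0.03 over all probes, and THY1 was on 0 arrays. The summed linear level of the list was 6988 to 10120 on vehicle, 28464 to 46900 on PLX4720, 14101 to 28841 on COMBO and 5205 to 7650 on bevacizumab. PLX4720 and COMBO overlapped, as did vehicle and bevacizumab. For COMBO against vehicle 1 of the 21 probes was higher, against 0.0872% of all probes, with a list median of 0.98. Between COMBO and PLX4720 0 of the 21 were called, against 0.00485% of all probes. The list median there was -0.79, whereas the VCAM1 probes differed by -0.34 to 0.05. The probes of smallest p under PLX4720 were of POSTN (3.34 ± 0.28 and 3.84 ± 0.38), TAGLN (2.04 ± 0.24) and LUM (3.29 ± 0.39). Of 19 leukocyte probes 1 was lower there, of CD68 (-2.38 ± 0.28, adjusted p = 0.00293), and 1 higher, of AIF1 (1.90 ± 0.31, adjusted p = 0.0138). The brightest CD68 probe (ILMN_1714861) differed by -1.13 ± 0.36 and did not pass (adjusted p = 0.143). Nor did another AIF1 probe (ILMN_1703538), below background on all vehicle arrays (at least 1.21-fold, adjusted p = 0.466). Of 9 endothelial probes 0 were called under PLX4720. In the averaged effect of PLX4720 TIE1 was lower (-2.27 ± 0.44, adjusted p = 0.0209), as were 1.07% of all probes. The endothelial list summed to 1743 to 2406 on vehicle, 1159 to 4629 on PLX4720, 1423 to 1640 on COMBO and 1825 to 2714 on bevacizumab, and the leukocyte list to 8178 to 9130, 5249 to 8083, 6856 to 7251 and 8146 to 11012 in the same order. A list of 12 genes kept for RNA handling holds immediate early and stress genes, among them FOS, FOSB, EGR1, IER2, DUSP1 and ATF3. It summed to 28258 to 32545 on vehicle and 18287 to 81807 on PLX4720. The highest array was PLX4720 2, where its median stood 1.33 above vehicle. ATF3 was the 1 member called under PLX4720, lower by 1.48 ± 0.34 (adjusted p = 0.0485). Whether drug or handling moved this list was not tested. The part of these markers in the VCAM1 result was not tested. In whole-tumour RNA fewer cells of a type and less RNA per cell cannot be told apart, nor can human and mouse sources of signal on these arrays.

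**Figure D5:**
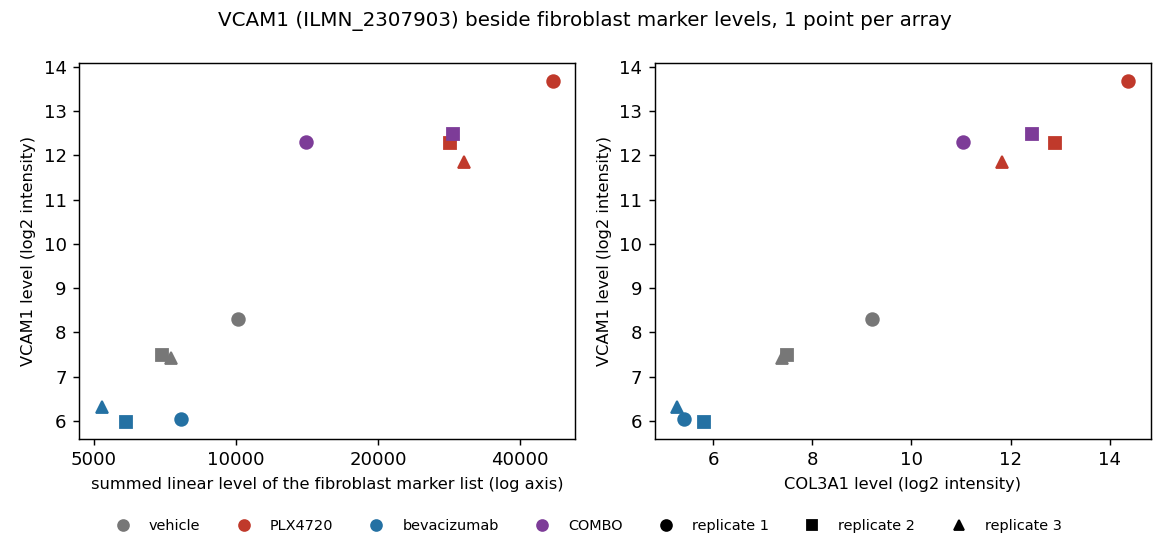
VCAM1 level (y axis, ILMN_2307903, normalized log2 intensity) against the summed linear level of the fibroblast marker list (left, log axis) and against the COL3A1 level (right, log2 intensity), with a point per array, coloured by arm. Arrays with PLX4720 lie at the upper right of both panels. In the right panel bevacizumab arrays lie at the lower left and vehicle arrays between them. In the left panel the sums of vehicle and bevacizumab arrays overlap.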

How the data were processed

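The authors exported probe values with GenomeStudio 2011.01. The deposited table holds an intensity per probe, not normalized, and a detection p-value against negative control beads, and a second deposited table holds the authors' intensity values after cubic spline normalization, used as an alternative. Genes were named through the platform annotation and current gene IDs. In limma 3.58.1 (R 4.3.3), background was corrected by normexp, its noise estimated through the detection p-values, 16 was added, and quantile normalization and a log2 transform followed. The 20638 probes with 1 symbol and a detection p below 0.05 on at least 1 array were fitted with the 4 arms, all 11 arrays sharing the spread (lmFit, eBayes, two-sided). A call is an adjusted p below 0.05 (Benjamini-Hochberg, all these probes). The fit was checked on simulated data.

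Where an arm had no array above background, the fold is a bound: the brighter arm's mean against the dimmer arm's mean of, per array, the higher of the lowest level among detected probes and the probe's own level. The number of arrays limits the precision. Sample titles gave the groups, and the members, lists and tests were chosen with earlier results of these data known. All 13 probes of the 8 genes with a probe were named, with the 6 genes most like VCAM1, and TNF, NFKB1, RELA and REL. Of the signalling, induced-gene and adhesion lists, up to 4 probes of smallest p and the members called in any contrast were named. Of the marker and RNA handling lists only some members were. Probe coordinates are left out, since their genome build is not given in the sources used here. Figures were drawn with matplotlib 3.10.9.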

Additional observations from a re-analysis of the deposited data

How the results depend on the processing

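The count of member probes called under PLX4720 against vehicle, 5 of 12, became 3 with the authors' spline values and with an offset of 50. It was also 3 with no filter on detection (of 13) and with the replicate block. It was 2 with no background correction and with only the arms compared. Of all probes tested, the main fit called 502. The spline values called 479, an offset of 50 called 489, no filter 397, the block 335, no background correction 458 and only the arms compared 52. For COMBO against vehicle, 2 became 1 with the spline values, an offset of 50, no background correction, no filter and the replicate block. With array weights it became 5. Over all probes 20 became 11, 11, 11, 7 and 5 in that order, and 479 with array weights. For COMBO against bevacizumab, 3 became 1 with the spline values, no background correction and the replicate block. Over all probes 62 became 44, 42 and 16 in that order. With 1 probe per gene, 8 were tested. Of these 3 were called under PLX4720, 1 for COMBO against vehicle, 1 for COMBO against bevacizumab and 2 for the averaged effect of PLX4720. These are as many as the 3, 1, 1 and 2 genes called with every probe. Among all genes tested that way 339, 21, 54 and 499 were called, in the same order. At the methods' limits (a log2 change of at least 1 with an unadjusted p below 0.01) bevacizumab against vehicle gave 1 in place of 0, VCAM1 ILMN_2307903. Of all probes, 0.179% passed these limits there. With any single array of an arm of 3 left out, the counts ranged from 2 to 6 under PLX4720, where 72 to 1461 of all probes were called. They ranged from 1 to 3 for COMBO against vehicle (3 to 86 of all probes) and from 1 to 3 for COMBO against bevacizumab (13 to 164). For the averaged effect of PLX4720 they ranged from 3 to 6 (269 to 1092). They stayed at 0 for the other 4 contrasts. There up to 585 of all probes were called for COMBO against PLX4720 and up to 210 for the interaction. For the averaged effect of bevacizumab it was up to 31, and for bevacizumab against vehicle 0.

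No called value reversed its sign. VCAM1 ILMN_2307903 and ILMN_1766955 passed under PLX4720 in all 21 and 20 settings, ILMN_2325763 in 15 of 20, TRAF1 ILMN_1698218 in 7 of 21 and TNFAIP3 in 5 of 21. Fits with only 1 COMBO array aside, the calls lost with other scalings or with fewer arrays had adjusted p values from 0.05 to 0.196. The cause of the changes from other scalings was not tested. Arrays of different arms with the same replicate number deviated together with a correlation of -0.444 to 0.239 (15 pairs, 5 over 0.1). For other numbers it was -0.465 to 0.61 (30 pairs, 9 over 0.1). Pairing by number was not seen, but deviations from means of 2 or 3 arrays are tied to each other and cannot exclude it. Array weights brought in ILMN_2325763, TRAF1 and NFKBIA under COMBO. Arms of 2 or 3 arrays limit every count.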

Other observations

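NFKBIA (ILMN_1773154), which peaked on COMBO 2, had CXCL2 (r = 0.925), BCL6 (0.923), BAMBI (0.915), GAS1 (0.903), CXCL1 (0.892) and LMO4 (0.883) as the genes of most similar profile over the 11 arrays, and TNFAIP3 had OMD (0.967), PARP12 (0.966), TMTC1 (0.96), NAGK (0.958), PKNOX2 (0.955) and CYP1B1 (0.95). CXCL1 and CXCL2 are neutrophil-attracting chemokines. For NFKB2 (ILMN_1799062) they were STRN4 (0.987), RGS19 (0.974), CORO2B (0.974), ZNF76 (0.973), ANKRD52 (0.972) and IRF3 (0.97). None of these genes is among the 6 closest to VCAM1. They were chosen after their values were seen, and the values describe 11 arrays of 4 arms, with no test.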
